A study of Mus musculus with 40 samples.

Results

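The clustered protocadherin locus was taken as the stretch of mouse chromosome 18 from base 37050000 to base 38010000 of the mm9 build, which holds the Pcdha, Pcdhb and Pcdhg gene clusters. Its members were all CpG cytosines that the deposited reduced representation bisulfite sequencing (RRBS) table lists there, 356 of the 400298 in the table. By position, 58 lay in the Pcdha cluster, 62 in the Pcdhb cluster, 194 in the Pcdhg cluster and 42 outside them, 40 between the clusters and 2 beyond the Pcdhg end. A CpG was analysed further, and is called tested here, if at least 36 of the 40 mice had at least 10 reads at it, which left 250 of the 356 (and 262317 in the whole table). Of these, 40 were in the Pcdha, 37 in the Pcdhb and 146 in the Pcdhg cluster. The first and last members were at bases 37092092 and 38002312, and the nearest listed CpGs outside the stretch were at 36992289 and 38031875.

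DNA came from the livers of 40 male C57BL/6 mice (C57BL/6J in the study's methods) aged 9 weeks, which differed in the diet of the dam and in the diet eaten after weaning, each low fat (LF) or high fat (HF). Dams ate their diet from before pregnancy until weaning. Groups are named by the maternal diet and then the post-weaning diet: LF_LF, LF_HF, HF_LF and HF_HF, with 10 mice each. The study asked whether maternal diet left differences in DNA methylation in adult offspring that shared a diet, so HF_HF was compared with LF_HF and HF_LF with LF_LF, and the post-weaning diets were compared within each maternal diet. The labels give no litter, so littermates may be counted as separate mice and the p-values measure the spread between these mice. By the study's methods the males of a cage were divided between the post-weaning diets. The groups compared for that diet may therefore share litters.

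The protocadherins of these clusters are cell adhesion proteins known chiefly from neurons, where each cell uses a few of the many genes and so acquires a surface identity. Each variable exon has its own promoter and encodes the extracellular part, and in the Pcdha and Pcdhg clusters it is spliced to constant exons shared by the whole cluster, whereas Pcdhb genes consist of a variable exon alone. In neurons methylated promoters of the alternate exons are silent, while the C-type exons (Pcdhac1, Pcdhac2, Pcdhgc3, Pcdhgc4 and Pcdhgc5) are controlled differently and are used by most neurons.

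Depth limited every value. The libraries held from 2969907 to 23345592 reads at CpGs, and the median tested CpG of the locus had 12 reads in the mouse with the lowest median and 60 in that with the highest. The HF_HF mouse with the fewest reads had no value at 112 of the 250 tested CpGs. RRBS samples the locus sparsely, since its reads start at the cut sites of MspI, an enzyme that cuts at CCGG: the listed CpGs were 1.57% of the 22722 CpG cytosines of the reference stretch. Tested CpGs fell in the variable exon or the 1000 bp upstream of 33 of 58 named protocadherin genes, 6 of 14 Pcdha, 9 of 22 Pcdhb and 18 of 22 Pcdhg genes, and none were listed in the constant exons. The labelled tissue could be checked only in part, because 3 of 11 hepatocyte genes had tested promoter CpGs. The 18 CpGs of Apoh averaged 1.32% methylation, the 4 of Fga (fibrinogen alpha chain) 17.5% and the CpG of Hnf4a (a hepatocyte transcription factor) 23.0%.

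The locus was mostly at intermediate methylation. Its 250 tested CpGs averaged 36.1%, close to the 35.5% of all tested CpGs, but the median was 29.9% against 6.74% in the whole table. Methylation between 10% and 90% was found at 164 CpGs (65.6%) of the locus and at 28.3% of all tested CpGs. Only 74 CpGs (29.6%) were below 10%, against 53.9% in the whole table, and 12 (4.80%) were at 90% or more, against 17.9%. The Pcdhb cluster was the most methylated, with a mean of 60.4% and 0 of 37 CpGs below 10%. The Pcdha cluster averaged 44.2% and the Pcdhg cluster 30.8%, and about 3 in 10 CpGs of each were below 10% (30.0% and 29.5%). These are descriptions over CpGs that share mice and fragments, and no test was made of them.

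**Figure D1:**
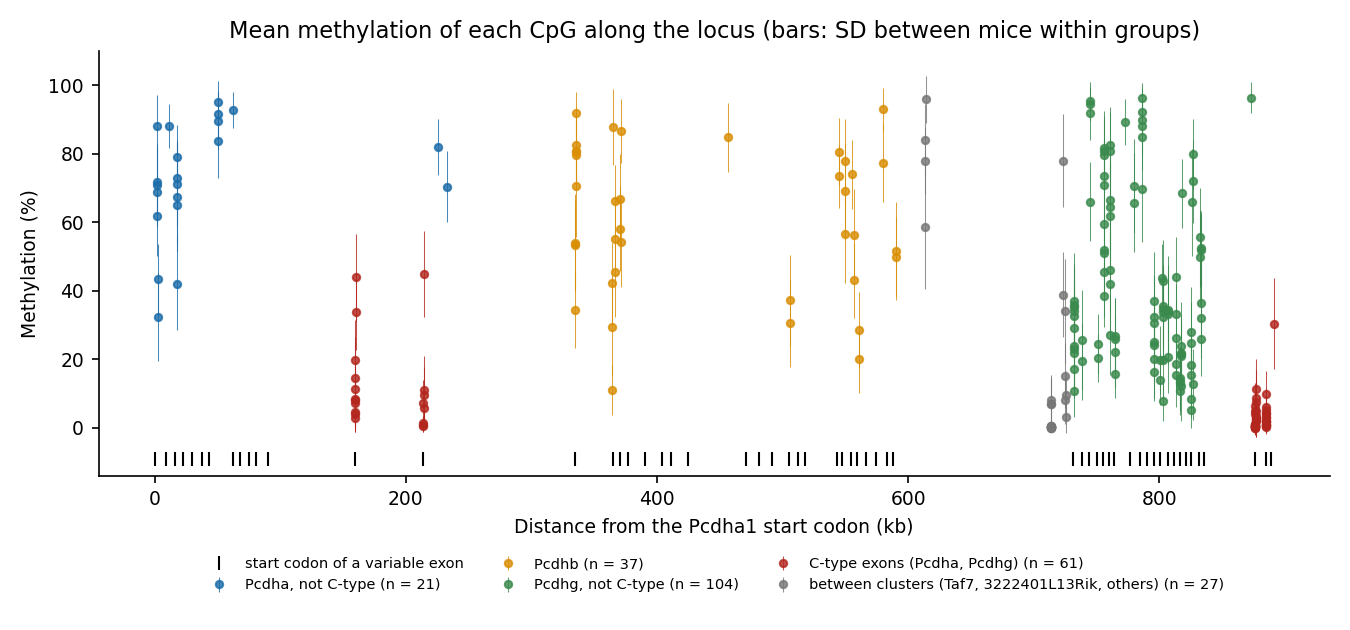
Mean methylation (%) of each of the 250 tested CpGs against its distance in kb from the start codon of Pcdha1; bars are the SD between mice within groups, colours give the cluster, and ticks mark the start codons of variable exons. C-type exons (red) lie near the bottom at Pcdhgc3 and Pcdhgc4, while those of the Pcdha cluster reach 45% and the other exons spread over most of the range.

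Averaged over CpGs, the C-type exons were less methylated than the other variable exons at their start codons. Within 1000 bp upstream and the first 500 bp of the exon, the 47 tested CpGs of 4 C-type genes averaged 5.02% (median 1.86%), and 42 of them were below 10%. Of these 47 CpGs 32 belong to Pcdhgc3 and Pcdhgc4. The 55 CpGs in the same position at 13 other genes averaged 30.7% (median 25.9%), with 2 below 10%. The separation was between averages and not between all genes: the start of Pcdhac1, at 14.5%, was level with those of Pcdhga10 (14.6%), Pcdhga11 (16.7%) and Pcdhgb5 (16.9%), and Pcdhgc5 had no tested CpG there. Over the CpGs with a value in each mouse, the C-type starts ranged from 3.36% to 7.59% among the 40 mice (median 5.08%) and the other starts from 27.8% to 35.0% (median 30.4%). The ranges did not overlap, and the other starts exceeded the C-type starts by 25.5 ± 1.78 percentage points (SD, n = 40), higher in 40 of 40 mice. Within the Pcdhg cluster alone the same averages were 2.11% ± 0.837 and 23.2% ± 2.04 (SD, n = 40).

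Pcdhgc3 was the least methylated C-type gene, with 26 tested CpGs that averaged 2.59%. Its 17 CpGs at the start averaged 1.28%, and the CpG 77 bp upstream of the start codon (base 37966125) had no methylated read in any mouse with a value. Low methylation reached far into the exon: the 9 CpGs from 759 to 1049 bp after the start codon averaged 5.07%, and the highest of them was 11.4%. Over mice the mean of the gene's CpGs ranged from 0.683% to 6.47%, with a median of 2.49%. Such a mean covers the CpGs at which a mouse had a value, here and for the genes below.

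Pcdhgc4 was also low, with 15 CpGs from 116 bp before to 110 bp after its start codon that averaged 3.0%, and its highest, at base 37975094, reached 9.99%. The 40 mice ranged from 0.494% to 5.99% around a median of 2.82%. Pcdhgc5 could not be judged at its start, since its only tested CpG lay in the exon's last part and averaged 30.4%. Mice ranged from 7.14% to 53.3% at that CpG.

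The C-type genes of the Pcdha cluster were less uniform. At Pcdhac2, 4 CpGs from 165 to 129 bp upstream averaged 2.53%. Of the 4 CpGs 784 to 812 bp into its exon, 3 were at 5.75% to 11.0%, while the fourth, only 16 bp from its neighbour, was at 45% ± 12.6 (pooled SD within groups). That CpG lies in an MspI site and the other 3 do not. At Pcdhac1, 9 CpGs from 82 to 11 bp upstream ran from 2.94% to 19.9%, and 2 CpGs at 354 and 401 bp after the start codon were at 33.9% and 43.9%. Per mouse, Pcdhac1 ranged from 7.12% to 25.6% (median 14.7%) and Pcdhac2 from 0.625% to 16.5% (median 10.3%). These ranges also depend on which CpGs each mouse had, since the upstream and exon CpGs of a gene differed in level and in coverage.

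**Figure D2:**
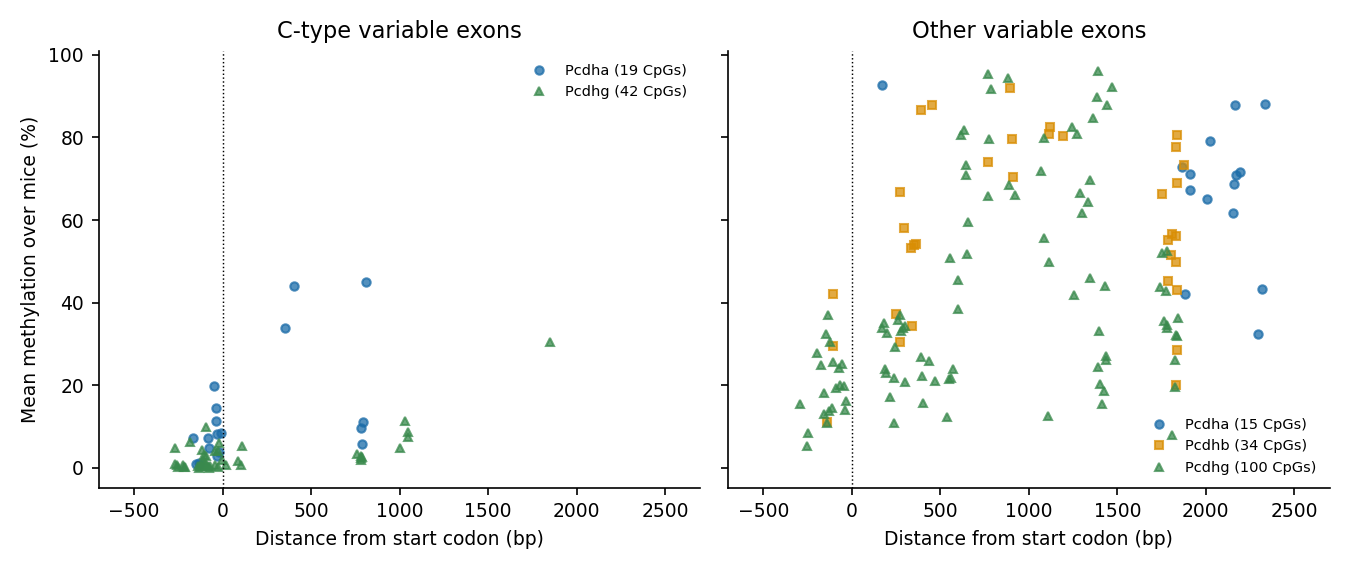
Mean methylation over mice (%) of each tested CpG against its distance from the start codon of the variable exon (bp; negative is upstream, dotted line the start codon), for C-type exons on the left and all other variable exons on the right. Most C-type CpGs lie near 0 around the start codon, whereas those of the other exons lie mostly between 10% and 40% there and rise to over 90% inside some exons.

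Among the other variable exons of the Pcdhb and Pcdhg clusters, methylation was on average lower at the start than inside the exon. In the Pcdha cluster the only tested start CpG, in the first 500 bp of Pcdha8, was at 92.7%, the highest of the 55, and 14 CpGs further inside other exons averaged 65.9%. Over all 3 clusters, the 24 CpGs upstream of the start codon averaged 20.8%, the 31 in the first 500 bp 38.4%, the 53 in the middle of the exon (to 1500 bp) 60.3% and the 41 in the last part 52.3%. Per mouse, the exon after its first 500 bp averaged 56.5% ± 2.14 (SD, n = 40), higher than the start by 25.9 ± 2.32 percentage points and higher in 40 of 40 mice. Different genes supply these positions, because few have CpGs in both. In the 7 genes that do, C-type genes included, the body was above the start in 7, by 3.79 percentage points at Pcdhgc3 to 40.9 at Pcdhga11, with a median of 15.0.

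Pcdhga11 showed the change most clearly. Of its 3 CpGs more than 200 bp upstream, those at 252 and 249 bp were at 5.24% and 8.46% and the third at 15.5%. The 3 from 199 to 158 bp upstream were at 18.3% to 27.9%, and those at 1069 and 1084 bp inside the exon at 71.9% and 79.9%. The next CpG, 25 bp further on (base 37916704), fell to 12.7%. Both CpGs are read on the plus strand and neither is in an MspI site. The second was lower in 38 of 38 mice with both values, by 31.6 to 100.0 percentage points. The other step of at least 40 points between tested CpGs within 50 bp on a strand was at Pcdhgb2, from 82.5% to 41.8% over 10 bp, in the same direction in 38 of 38 mice. There the higher CpG lies in an MspI site and the lower does not. In all, 2 of 162 such pairs of the locus stepped by 40 points (1.23%), against 0.432% of the 163448 in the whole table, and among pairs with a mean of 10% to 90% it was 1.96% in the locus and 2.08% in the whole table.

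Within the Pcdhg cluster the genes covered the widest range. Pcdhga3 and Pcdhga7 were the most methylated, at 86.9% (4 CpGs) and 86.7% (6 CpGs), followed by Pcdhga4 at 63.3% (10 CpGs). All of their tested CpGs lay inside the exon, more than 500 bp from the start codon. Outside the C-type genes, and among genes with at least 3 tested CpGs, the lowest was Pcdhga10 at 22.1% (10 CpGs). Its CpGs from 157 to 110 bp upstream were at 10.8% to 14.4%, and all 5 of its start CpGs averaged 14.6%. Its 5 CpGs further inside the exon averaged 29.6%, and the highest of them, at 887 bp, was at 68.4%. Among the genes with at least 3 tested CpGs Pcdhga5 was next at 22.7%. The mice ranged from 11.4% to 32.8% at Pcdhga5 and from 5.88% to 33.1% at Pcdhga10. These ranges overlapped, but they depend on which CpGs each mouse had, and the genes were not compared within mice. Position did not fix the level: the 2 tested CpGs of Pcdhgb1, also inside the exon, averaged 22.4%.

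In the Pcdhb cluster, Pcdhb1 was the highest of the 5 genes with at least 3 tested CpGs, at 69.7%. Its 3 CpGs at 333 to 352 bp averaged 47.2% and its 6 CpGs from 893 bp on averaged 80.9%. Pcdhb16 and Pcdhb3 followed at 67.8% and 66.4%, then Pcdhb17 at 57.7% and Pcdhb2 at 48.2%, and the ranges over mice of these genes overlapped. At Pcdhb2 the CpGs upstream of the start codon rose from 11.1% at 139 bp to 42.2% at 104 bp. Of the Pcdhb genes with fewer tested CpGs, Pcdhb18 was the lowest at 24.3%. In the Pcdha cluster outside the C-type genes, Pcdha3 averaged 66.2% over 6 CpGs and Pcdha1 62.4% over 7, all of them near the end of the exon.

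**Figure D3:**
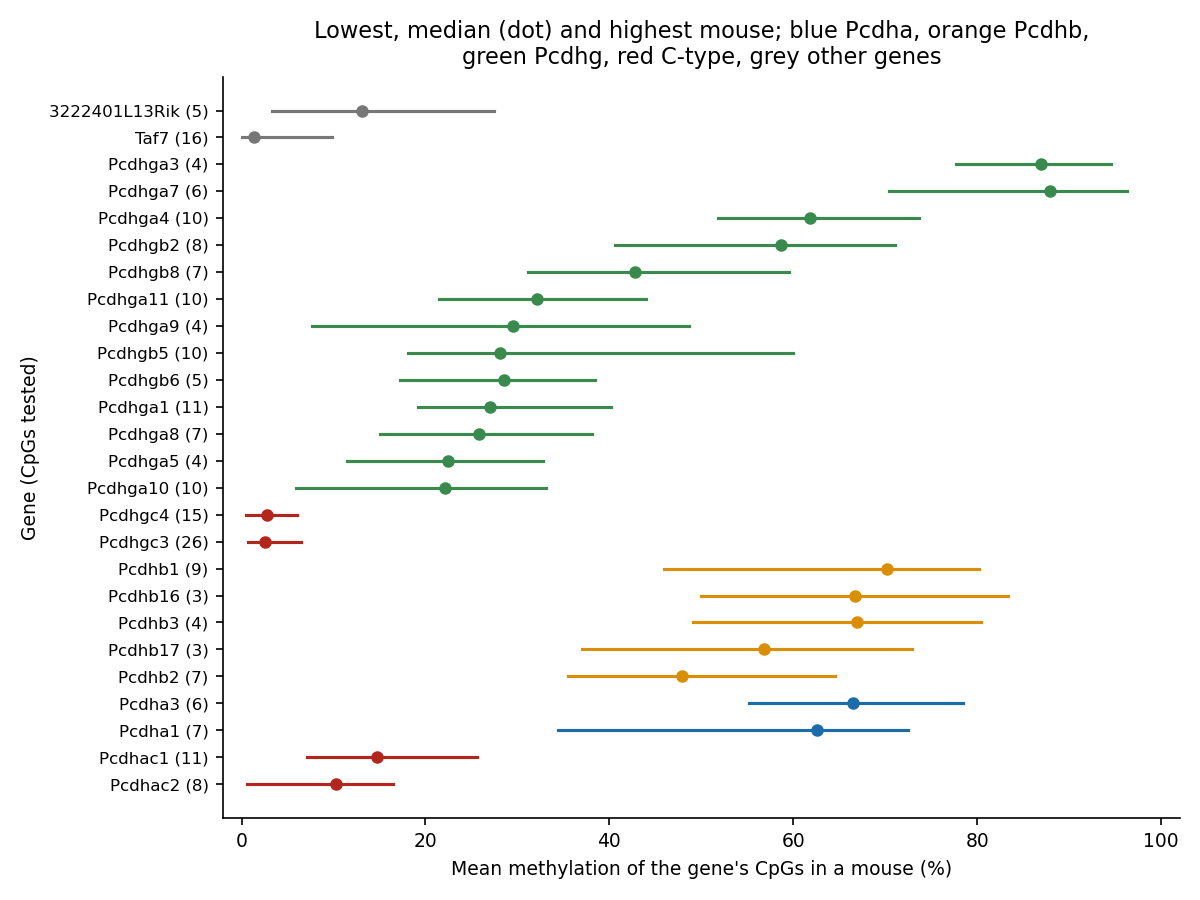
Mean methylation (%) of each gene's tested CpGs per mouse, for the genes with at least 3 tested CpGs; the line runs from the lowest to the highest mouse, the dot is the median mouse, and the number of CpGs is in brackets. Lines of Pcdhgc3 and Pcdhgc4 end below 7%, while those of Pcdhga3 and Pcdhga7 start above 70%. Each mean covers the CpGs at which the mouse had a value, so the lines also depend on which CpGs were read.

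The genes between the clusters are not protocadherins. Taf7, which encodes a subunit of the general transcription factor TFIID, was nearly unmethylated: its 16 tested promoter CpGs averaged 1.58% and had a median over mice of 1.40%. The 5 CpGs at the start of 3222401L13Rik averaged 14.1%, from 3.32% to 34.2%. At Taf7 the 13 CpGs outside MspI sites lay between 0% and 0.520%, and the 3 inside them between 6.92% and 8.04%. The CpGs in MspI sites were the higher in 38 of 40 mice. The same held at the start of Pcdhgc3, where 3 CpGs in such sites averaged 5.10% and the other 14 averaged 0.463%, higher in 36 of 39 mice, and at that of Pcdhgc4, with 4.94% for 4 CpGs and 2.29% for 11. Values of a few percent in MspI sites of the low regions therefore carry this difference, whose source was not tested.

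Start codons with more G and C around them were less methylated. Over the 17 genes with a tested CpG at the start, the Spearman correlation of mean methylation with GC content from the reference was -0.76, and with the ratio of observed to expected CpGs it was -0.51. The genes share mice and libraries and the 4 C-type genes among them have both the highest GC content and the lowest starts, so these are descriptions. The kilobase around the start codon had a GC content of 67.3% at Pcdhac2, 60.1% at Pcdhgc3, 57.4% at Pcdhac1 and 55.1% at Pcdhgc4, against medians of 46.5% for the other Pcdha, 43.6% for the Pcdhb and 48.5% for the other Pcdhg genes. The order was not strict, since Pcdhac1 had a higher GC content than Pcdhgc4 and a more methylated start.

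Promoters of related genes outside the clusters were low. Of 12 non-clustered protocadherins 7 had tested promoter CpGs (1000 bp upstream to 500 bp downstream of a transcript start), and 65 of their 70 CpGs were below 10%. Pcdh15 was the exception, with 13 CpGs that averaged 34.0% and ran from 0.296% to 93.1%, and the other 6 genes averaged 1.16% (Pcdh1) to 4.53% (Pcdh8). Of 16 genes known to control the clusters 10 were covered, and 151 of 153 CpGs were below 10%. These included Ctcf, whose protein anchors the loops between protocadherin promoters and enhancers, at 2.10%, Smchd1, which represses the clusters, at 0.904%, and Dnmt3b, which methylates the alternate promoters, at 1.22%. The DNA methyltransferase gene Dnmt3a was the highest of the list, with 5 CpGs that averaged 39.4% and reached 95.8%. Over all promoters 89.4% of tested CpGs were below 10%, while around the protocadherin start codons it was 44 of 102 (43.1%).

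Mice of a group differed at the intermediate CpGs somewhat more than read sampling gives. At the 164 CpGs between 10% and 90% the median SD within groups was 11.3 percentage points, against 9.76 from the binomial error of the read counts. The median ratio of the SD to its binomial value was 1.17 in the locus and 1.14 at all 74137 such CpGs. The CpG at base 37703463, between the Pcdhb and Pcdhg clusters, had the largest SD, 18 against a binomial 11.5, around a mean of 58.5%, and its mice ranged from 21.4% to 92.3%. Next came base 37897073 at Pcdhga9, with an SD of 15.8 around 34.4%, and base 37107772 at Pcdha3, with 15.6 around 67.3%. Reads of the same fragment carry no molecular identifiers, so the binomial values cover counting error only.

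No CpG of the locus differed by diet at a false discovery rate (FDR) of 5% in any of the 4 comparisons. Each CpG was compared by Student's t-test (two-sided) with Benjamini-Hochberg adjustment across the whole table, and the smallest FDR in the locus was 0.808 to 0.822. Welch's test, the exact Wilcoxon test, a quasi-binomial model and limma also called 0. Over all CpGs of the table, 0 passed Student's test for either maternal comparison, 0.00084% passed between LF_HF and LF_LF, and 0.00124% between HF_HF and HF_LF. Between HF_HF and LF_HF, 9 of 242 CpGs with a p-value had an unadjusted p below 0.05, against 3.72% over the whole table. Between HF_LF and LF_LF it was 13 of 241, against 3.99%. Between LF_HF and LF_LF it was 8 of 240, against 4.03%, and between HF_HF and HF_LF 13 of 243, against 4.06%. The locus shares of 3.72%, 5.39%, 3.33% and 5.35% lay near these backgrounds. The backgrounds are not matched for methylation, since 53.9% of all tested CpGs were below 10%, against 29.6% in the locus. Calls at unadjusted p went both ways. In HF_HF against LF_HF 5 were higher and 4 lower (1.52% and 2.19% in the whole table), and in HF_LF against LF_LF 8 and 5 (2.39% and 1.6%). In LF_HF against LF_LF 4 were higher and 4 lower (2.22% and 1.81%), and in HF_HF against HF_LF 7 and 6 (1.46% and 2.6%). They involved 38 CpGs, of which 5 recurred, and comparisons that share a group are not independent. At 0 CpGs of the locus did the mice of the compared groups fall in separate ranges, which is near the background of 0.00292%, 0.00166%, 0.00252% and 0.00536% of the whole table in the same order of comparisons.

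**Figure D4:**
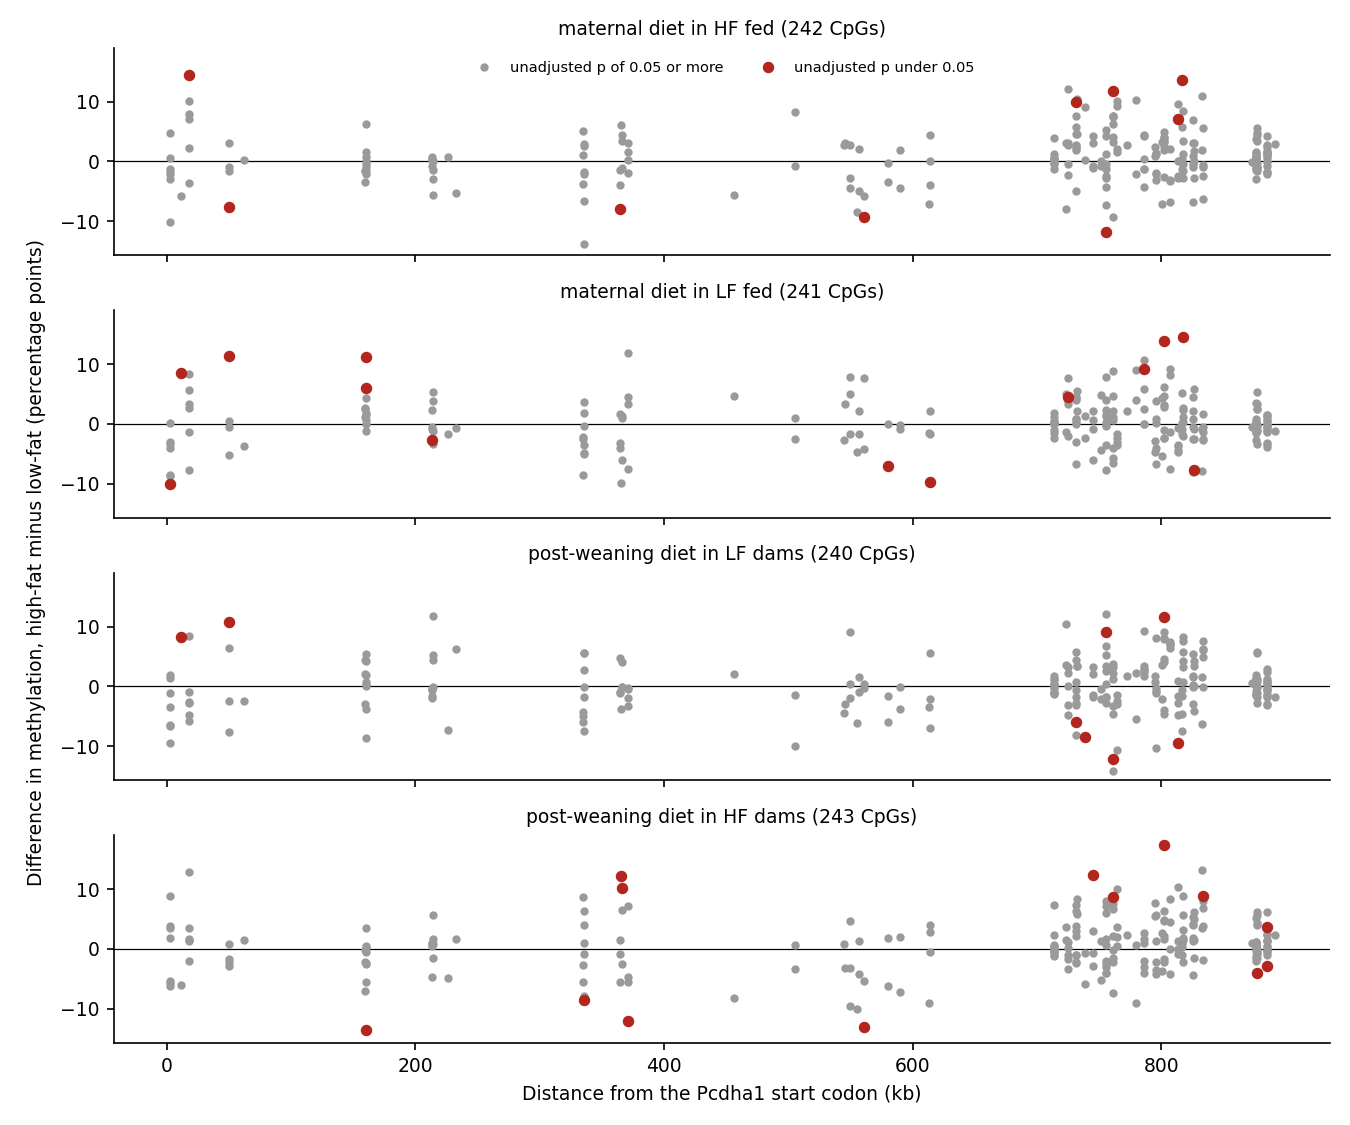
Difference in mean methylation (percentage points, high fat minus low fat) of each CpG with a p-value against its distance from the Pcdha1 start codon (kb), in the 4 comparisons; red points have an unadjusted p under 0.05. Differences lie on both sides of 0 along the whole locus, and red points are scattered among the clusters.

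For maternal diet in mice fed HF, the smallest p was at base 37906714, 128 bp upstream of the Pcdhga10 start codon. HF_HF mice ran from 12.3% to 46.2% with a median of 14.3%, and LF_HF mice from 0% to 15.4% with a median of 4.76%. The means were 18.6% ± 10.3 (SD over 10 mice) and 5.04% ± 5.59 (SD over 9 mice) and lay 13.6 percentage points apart, with an exact two-sided permutation p = 0.00021 before adjustment. The FDR was 0.822, the groups overlapped, and 2 of the 3 tested CpGs within 50 bp, which can share its reads, were also higher in HF_HF. For the other maternal comparison this CpG was 5.16 points higher in HF_LF than LF_LF. At base 37454491, upstream of Pcdhb2, HF_HF mice had a median of 5.57% and LF_HF mice 11.8% (exact permutation p = 0.014). Base 37140092, outside the variable exons, was 7.67 points lower in HF_HF than in LF_HF (exact permutation p = 0.014). The largest differences in this comparison were 14.5 points higher at base 37107867 in Pcdha3 and 13.8 lower at base 37425561 in Pcdhb1 (exact permutation p = 0.034 and 0.070).

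For maternal diet in mice fed LF, base 37140100, in the Pcdha cluster outside the variable exons, ran from 93.8% to 100.0% in HF_LF mice (median 100.0%) and from 69.2% to 100.0% in LF_LF mice (median 90%). Its difference of 11.4 points had an exact permutation p = 0.00042 and an FDR of 0.818, and 1 of 3 tested CpGs within 50 bp differed in its direction. At base 37815317, by the start of 3222401L13Rik, HF_LF mice ran from 0% to 11.1% and LF_LF mice from 0% to 3.57% (exact permutation p = 0.0063). Base 37907729 in Pcdhga10 had the largest rise, with 73.5% ± 10.2 in HF_LF and 59.0% ± 12 in LF_LF (SD, n = 10 each, exact permutation p = 0.010). The largest fall was at base 37092107 in Pcdha1, by 10.1 points (exact permutation p = 0.050).

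For post-weaning diet, base 37892580 in the last part of the Pcdhgb5 exon was among the smallest p-values in both comparisons, which share no mice. HF_HF mice ran from 22.7% to 75% (median 49.0%) and HF_LF mice from 10.5% to 47.9% (median 35.3%), and the difference of 17.5 points was the largest rise of that comparison (exact permutation p = 0.013, FDR 0.820). LF_HF mice ran from 25.9% to 66.7% (median 50.9%) and LF_LF mice from 23.8% to 48.1% (median 38.1%), a difference of 11.6 points (exact permutation p = 0.013, FDR 0.808). Of the 5 tested CpGs within 50 bp, 5 were higher in HF_HF than HF_LF and 4 in LF_HF than LF_LF. CpGs this close can share reads with the named CpG, so their directions are not separate observations. The groups overlapped in both, and this CpG was chosen from 250 by its p-value.

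The other CpGs named for post-weaning diet were among the smallest p-values or largest differences of a single post-weaning comparison. In offspring of LF dams, base 37101308 in Pcdha2 was at 91.4% ± 4.31 (SD over 9 mice) in LF_HF and 83.2% ± 7.13 (SD over 10 mice) in LF_LF (exact permutation p = 0.0067), and base 37140100 was 10.8 points higher in LF_HF (exact permutation p = 0.0036), against the same LF_LF mice as above. The largest difference each way was at base 37845696 in Pcdhga4, 12.2 points higher in LF_HF, and at base 37850865 in Pcdhgb2, 14.2 lower (exact permutation p = 0.068 and 0.094). In offspring of HF dams, base 37456415 in Pcdhb2 was 10.3 points higher in HF_HF than HF_LF (exact permutation p = 0.024) and base 37250144 in Pcdhac1 13.7 points lower (exact permutation p = 0.024). In offspring of LF dams the latter was 8.59 points lower in LF_HF than LF_LF, and base 37850865 was 7.44 points lower in HF_HF than HF_LF. At base 37975184, 3 bp upstream of the Pcdhgc4 start codon, HF_HF mice ran from 0% to 10% and HF_LF mice from 0% to 5.26% (exact permutation p = 0.026). Their FDRs were 0.808 to 0.820.

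Averages over the locus are given by group beside the spread between mice. Over the 29 CpGs with at least 10 reads in all 40 mice, methylation averaged 36.1% ± 2.69 in LF_LF, 37.5% ± 1.83 in LF_HF, 37.4% ± 1.49 in HF_LF and 37.9% ± 2.51 in HF_HF (SD, n = 10 each), and the ranges of all groups overlapped. The 8 such CpGs of the Pcdha cluster averaged 25.4% ± 3.82, 24.7% ± 3.90, 27.4% ± 2.74 and 25.2% ± 3.54 in the same order. Apart from the CpG of Pcdha8 these lie at Pcdhac1, so their average does not stand for the cluster. Its 40 tested CpGs averaged 44.2%. The 6 such CpGs of the Pcdhb cluster averaged 67.3% ± 3.87, 67.1% ± 4.46, 67.6% ± 4.10 and 68.3% ± 4.33. The 15 of the Pcdhg cluster averaged 29.3% ± 3.97, 32.6% ± 2.67, 30.6% ± 1.39 and 32.6% ± 4.32. Every unadjusted difference between compared groups over these CpGs was below the pooled SD. The largest was 3.32 points in the Pcdhg cluster between LF_HF and LF_LF, or 0.981 SD. That SD is the spread between mice and not the error of a mean of 10 mice, so a difference below it need not be small. Adjusted for the mean methylation of the mouse the Pcdhg difference was 3.49 points, or 1.06 times the pooled SD of that setting. With both strands summed it was 3.26 points (1.16 SD), and weighted by reads 2.42 points (0.747 SD). With missing values filled over all 146 tested Pcdhg CpGs it was 0.609 points (0.560 SD). Over those of the CpGs read in all 40 mice with mean methylation from 10% to 90% the differences were wider and so was the spread between mice. That same Pcdhg difference was then 4.18 points, or 1.02 times the pooled SD of these averages. In the Pcdha cluster, over 3 CpGs, HF_LF minus LF_LF was 4.35 points (0.668 SD) and HF_HF minus HF_LF was -5.21 points (0.744 SD). These 3 all lie at Pcdhac1 and include base 37250144, named above as the largest fall of HF_HF against HF_LF. They are therefore not a separate result for the cluster. Over all 146 tested Pcdhg CpGs, with each missing value replaced by the mean of that CpG over the mice with a value, the mice spread less. The mean was then 32.0% ± 1.27 in HF_HF and 30.4% ± 1.14 in HF_LF (SD, n = 10 each), a gap of 1.31 pooled SD. It rested in part on 2 HF_HF mice with values at only 138 and 159 of the 250 CpGs. Without the 5 mice with values at fewer than 200 of these, 2 in HF_HF, 2 in LF_LF and 1 in LF_HF, HF_HF averaged 31.7% ± 1.17 over 8 mice, or 1.07 pooled SD above HF_LF. No test was made of these averages.

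**Figure D5:**
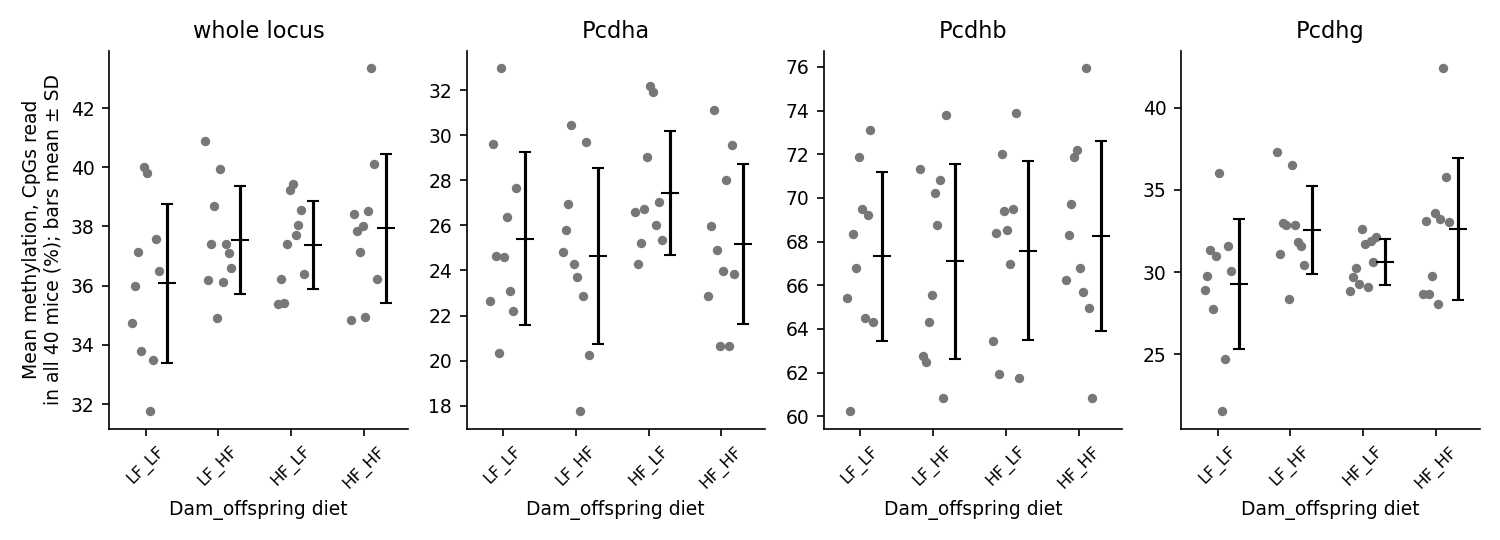
Mean methylation (%) per mouse over the CpGs read in all 40 mice, for the locus (29 CpGs) and for the Pcdha (8), Pcdhb (6) and Pcdhg (15) clusters, by group; points are mice and bars the mean ± SD of 10 mice. Axes do not start at 0. The groups overlap in all 4 panels. Apart from the CpG of Pcdha8, the 8 Pcdha CpGs lie at Pcdhac1.

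The contrast between C-type and other starts was present in each diet group. C-type starts averaged 5.05% ± 0.520 in LF_LF, 4.83% ± 0.925 in LF_HF, 5.21% ± 0.908 in HF_LF and 5.34% ± 1.19 in HF_HF (SD, n = 10 each). The other starts averaged 31.0% ± 1.23, 30.0% ± 1.07, 30.4% ± 1.46 and 31.2% ± 2.08 in the same groups. The lowest value of the other starts, 27.8% in an HF_LF mouse, was above the highest C-type value, 7.59% in an HF_HF mouse.

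Promoter CpGs of the related genes also passed no FDR threshold of 5%. Among the non-clustered protocadherins, 3 CpGs were higher and 2 lower at an unadjusted p below 0.05 in HF_HF than LF_HF, of 65 with a p-value. That is 7.69%, against 2.65% of the CpGs in all promoters. It was 3 and 0 of 64 in HF_LF than LF_LF, or 4.69% against 2.67%. It was 2 and 0 of 65 in LF_HF than LF_LF, or 3.08% against 2.72%, and 0 and 0 of 65 in HF_HF than HF_LF, against 2.68%. Among the regulators it was 1 and 2 of 116, 0 and 1 of 109, 2 and 1 of 119, and 3 and 2 of 117 in the same order. These shares of 2.59%, 0.917%, 2.52% and 4.27% have the same promoter backgrounds. Promoter CpGs of a gene share fragments, and these lists were not tested as sets.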

How the data were processed

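Livers of 40 mice were measured by RRBS. MspI fragments were size-selected, bisulfite converted and sequenced from a single end, and the authors aligned the reads to mm9 with Bismark, whose version is not given in the sources used here. The deposited files hold the methylated and the total read count of each CpG cytosine in each mouse, with no normalization. A further deposited file holds the fraction methylated, which differed from the counts by more than 1e-06 at 0 values. Totals below 10 reads are missing. There were 0 columns of no mapped mouse.

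Percent methylation was computed from the counts (Python 3.11.15, scipy 1.17.1). Student's t-test, as in the study's methods and checked on simulated data, was run at every CpG of the table with at least 10 reads in at least 36 mice, and named CpGs also got an exact permutation test. Members and lists were chosen with earlier results of these data known, so averages over the locus are given without p-values and the permutation tests planned for them are not reported. Named CpGs are, per comparison, the 3 with the smallest p and the largest difference each way, and the 3 with the largest SD. Named genes are the 3 highest and lowest per cluster with at least 3 tested CpGs, C-type genes and other genes of the stretch. Further examples were chosen after their values were seen. GENCODE vM1 merges the variable exons, so 61 open reading frames of at least 2200 nt were read from mm9. Of these 58 were named by their spacing in RefSeq (GRCm38.p6), and 23 of 23 symbols shared with GENCODE were the same. Distances run from the start codon. Alternatives were other tests (limma 3.58.1 on log2 ratios of reads with 0.5 added), other CpG sets, summed strands, read weights, mean methylation of the mouse as covariate, and leaving out the mouse with the fewest reads. Leaving out CpGs at MspI sites, and leaving out mice with few values where missing values were filled, were chosen after seeing the data. The 180 pairs of mice within groups differed by 1.18 to 1.81 times the variance of read sampling. This ratio does not tell repeat libraries of a mouse from separate mice, and each labelled mouse was counted once.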

Additional observations from a re-analysis of the deposited data

Results flagged for a closer look

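For region means and named CpGs, 52 groups were examined for a mouse far from the others of its group. It was found in 3, and chance alone gives about 1 in 20 groups. At base 37906714, upstream of Pcdhga10, an HF_HF mouse was at 46.2% and the next at 23.8%. At base 37140092, in the Pcdha cluster outside the variable exons, an LF_HF mouse was at 80% and the next at 91.7%. At base 37975184, by the Pcdhgc4 start codon, an HF_LF mouse was at 5.26% and all others of its group were at 0%.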

How the results depend on the processing

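The count of 0 CpGs at an FDR of 5% held in all 40 combinations of an alternative and a comparison, with Welch's, exact Wilcoxon, quasi-binomial and limma tests among them. The count at an unadjusted p below 0.05 stayed within 1.5 times in 33 of 40. For 2 of the 40, the comparisons that do not hold the mouse left out, the alternative is the same fit. With CpGs covered in all 40 mice, 29 in the locus, it was 0 between HF_HF and LF_HF, 2 between HF_LF and LF_LF, 1 between LF_HF and LF_LF and 4 between HF_HF and HF_LF, or 0%, 6.90%, 3.45% and 13.8% of them against 3.94%, 4.74%, 5.10% and 4.2% in the whole table. With all CpGs as deposited it was 13 between LF_HF and LF_LF (3.8% against 3.89%). Without CpGs at MspI sites it was 5 between LF_HF and LF_LF (3.29% against 3.28%) and 7 between HF_HF and HF_LF (4.52% against 3.03%), and for maternal diet it was 9 in both comparisons, 5.84% against 2.82% in mice fed HF and 5.88% against 3.12% in mice fed LF. These backgrounds are not matched for methylation. Without CpGs at MspI sites the Pcdhb mean was 5.93 points higher in HF_HF than HF_LF (0.671 with them). The difference of the maternal effects between post-weaning diets there was 6.10 points (0.909 with them). That Pcdhb mean rests on fewer than 6 CpGs, and the 5.93 points were 1.04 times its own pooled SD of 5.72. The cause was not tested. The differences of the Pcdha mean, HF_LF minus LF_LF and HF_HF minus HF_LF, were then 3.61 and -3.54 points (2.03 and -2.28 with them). At CpGs between 10% and 90% they were 4.35 and -5.21. In both settings all of these CpGs lie at Pcdhac1 and include base 37250144, named above for its fall in HF_HF against HF_LF. Apart from the Pcdhb values above, differences of region means moved by less than the pooled SD of the averages over CpGs covered in all mice, but 25 of 152 turned sign, from -2.59 to 0.964 points; weighted by reads, HF_LF minus LF_LF was -0.507 points for the Pcdha mean. Over all 146 tested Pcdhg CpGs with missing values filled by the mean of the CpG, however, the mice spread less, and the mean was 32.0% ± 1.27 in HF_HF, 30.4% ± 1.14 in HF_LF, 30.8% ± 1.07 in LF_HF and 30.2% ± 1.10 in LF_LF (SD, n = 10 each), so that HF_HF lay above HF_LF by 1.31 and above LF_HF by 1.05 times the pooled SD. Without the 5 mice with values at fewer than 200 of the 250 CpGs these were 1.07 and 0.716; this was not tested. Without the HF_HF mouse with the fewest reads the counts at unadjusted p were 9 and 13 in the comparisons that hold it, as with it. A minimum of 20 reads in all mice left 0 CpGs in the locus and gave no value. Groups compared for post-weaning diet may share litters, since the study divided the males of a cage between these diets. No paired analysis was possible because the labels give no litter, number the mice singly and share no number between groups.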

Other observations

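CpGs of the locus read on both strands gave like values: at the 6 such CpGs the strands differed by a median of 1.0 percentage points and by at most 3.29. At the 9667 in the whole table they differed by a median of 0.602 and by at most 71.9. The 4 CpGs of the stretch between the Pcdhb cluster and Taf7, from base 37703463 to 37703839, included the most variable CpG of the locus. The higher level inside MspI sites was seen outside the locus as well: among CpGs below 10% in all other promoters, the 23481 inside such a site averaged 5.48% and the 83621 others 0.794%, and the former was the higher in 40 of 40 mice. Its source was not tested.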
